A study of Mus musculus with 12 samples.

Results

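The genes described here serve the movement of mature dendritic cells (DCs) and their attraction of T cells. They were given as a list of 9 symbols, *Ccr7*, *Ccl17*, *Ccl22*, *Ccl19*, *Fscn1*, *Ccr1*, *Ccr2*, *Ccr6* and *Cx3cr1*, and all probes that carry one of these symbols through the accession in the array files were taken. This gave 10 probes for 8 genes, of 56605 probes and 24232 named genes on the array. *Ccr7* and *Cx3cr1* have 2 probes each, and no probe was matched to *Ccl19*. Transcripts were read on 12 Agilent mouse arrays with 1 dye, 3 for each of 4 groups, lettered A, B and C. RNA came from DCs grown out of bone marrow of female C57BL/6 mice with GM-CSF and IL-4, harvested on day 7 and matured for 24 h with LPS (1 μg/ml), which all groups received. DC Young came from untreated mice aged 2 months, DC Dysbiotic from mice of 2 months that drank an antibiotic cocktail (Abx; ampicillin, neomycin sulfate, metronidazole and vancomycin) for 21 days, DC Old from untreated mice aged 24 months, and DC Old-LP from mice of 24 months gavaged with *Lactobacillus plantarum* (LP) for 21 days. The ages are those of the sample labels. Each array carried RNA of a pool of 3 mice, and the treatments were given to the mice and not to the cultured cells. Group contrasts in this design ask how age, antibiotics and LP feeding of the donor mouse alter these genes in DCs matured in the same way.

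A DC that has met LPS matures and leaves the tissue for the draining lymph node, where it meets naive T cells. During this switch, mature cells as a rule take up CCR7, the receptor for CCL19 and CCL21 that leads them into lymph vessels, and give up receptors for inflammatory chemokines such as CCR1, CCR2 and CCR6, which bring precursors and immature cells to inflamed tissue. Mature DCs also secrete CCL17 and CCL22, both ligands of CCR4 on activated, Th2-type and regulatory T cells, and CCL19, which draws CCR7-bearing T cells and DCs. Fascin, the product of *Fscn1*, bundles actin in the long processes of mature DCs. CX3CR1, the receptor for CX3CL1, marks monocyte-derived mononuclear phagocytes and gut cells that extend processes between epithelial cells.

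The sequences before the start sites of *Ccl17*, of its neighbour and fellow CCR4 ligand *Ccl22*, and of *Ccr2* are shown because *Ccl17* and *Ccr2* are the members that moved together below while *Ccl22* could not be followed on all arrays. Promoters were found in the RefSeq table (build GRCm38.p6) for 8 of the 9 members, with 9 start sites, and the 250 bases before each start site were searched on both strands for 4 motifs. These were the STAT6 motif TTCNNNNGAA, the PU.1 core GAGGAA, the IRF motif GAAANNGAAA and the NF-κB consensus. Capitals mark their matches, none of which overlap another in the lines below, and each line reads 5′ to 3′ on the strand of the gene.
Ccl17, chr8:94810203-94810452, plus strand: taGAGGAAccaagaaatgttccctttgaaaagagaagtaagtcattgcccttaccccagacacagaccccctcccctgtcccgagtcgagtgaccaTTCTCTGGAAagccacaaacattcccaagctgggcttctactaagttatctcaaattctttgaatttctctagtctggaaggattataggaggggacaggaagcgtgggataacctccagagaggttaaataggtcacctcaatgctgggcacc
Ccl22, chr8:94745434-94745683, plus strand: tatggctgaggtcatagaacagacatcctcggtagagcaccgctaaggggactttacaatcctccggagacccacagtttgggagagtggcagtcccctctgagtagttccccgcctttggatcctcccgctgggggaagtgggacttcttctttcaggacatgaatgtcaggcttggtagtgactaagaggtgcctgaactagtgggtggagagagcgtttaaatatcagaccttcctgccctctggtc
Ccr2, chr9:124101933-124102182, plus strand: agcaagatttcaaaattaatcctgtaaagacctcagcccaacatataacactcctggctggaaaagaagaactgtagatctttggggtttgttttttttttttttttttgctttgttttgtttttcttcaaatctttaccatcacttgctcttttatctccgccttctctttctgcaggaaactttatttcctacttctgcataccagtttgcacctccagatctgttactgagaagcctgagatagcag
In *Ccl17*, a PU.1 core began 248 bases and a STAT6 motif 154 bases before the start site. None of the 4 motifs was found in these windows of *Ccl22* and *Ccr2*, nor in those of *Cx3cr1* and *Fscn1*. An NF-κB consensus and a PU.1 core stood in the window of *Ccr1*, a PU.1 core and an NF-κB consensus before separate start sites of *Ccr6*, and an IRF motif in that of *Ccl19*. Of all 32851 promoters in the table, 5.85% held the STAT6 motif, 23.3% the PU.1 core, 2.98% the IRF motif and 7.25% the NF-κB consensus in the same 250 bases, so these matches are a description of the letters and not of binding. The G and C content of the windows was 47.6% for *Ccl17*, 53.6% for *Ccl22* and 37.2% for *Ccr2*.

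The letters of the arrays mattered for most values. A and B of every group lay on the first of 3 slides, the C arrays of DC Young and DC Dysbiotic on the second, and those of DC Old and DC Old-LP on the third. The share of spots that read well above background was 61.2 to 66.4% for A and B but only 37.3 to 46.0% for C. No reading of a member probe was saturated or an outlier spot. Values below are normalized log2 signals of a probe, which are compared between arrays but not between probes. Each probe was fitted over all 12 arrays with limma, and a probe was called where its p, adjusted over all probes by Benjamini-Hochberg, was 0.05 or less and its log2 fold change 0.5 or more in either direction. The same fit was run with the letter as a block, which compares arrays of the same letter, with the slide as a block, and on the first slide alone. The legend of the array data speaks of independent sets, each a pool of mice, but the labels do not tie the letters to those sets. The p-values measure the spread between arrays. All 10 dendritic cell markers, such as *Itgax*, the class II genes and *Zbtb46*, were measured and were well above background on at least 1 array in every group, and 9 or 10 of them on all 3 arrays. The log2 of their summed signal was 18.5 to 18.9 in DC Young, 18.6 to 19.0 in DC Dysbiotic, 18.8 to 19.0 in DC Old, with 18.6 to 18.9 in DC Old-LP, and the defining markers of the labelled cell type were thus present in all groups. In DC Old versus DC Young, 5 of the 10 had a higher mean and 5 a lower one. With the letter as a block, 1 rose and 1 fell past the thresholds, beside 2.18% of all probes called.

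*Ccl17* was high in DC Young and DC Old-LP and lower in DC Old, with DC Dysbiotic between. The signal on arrays A, B and C was 15.24, 15.08 and 15.49 in DC Young and 13.80, 13.74 and 14.61 in DC Old. In DC Dysbiotic it was 14.30, 14.30 and 14.99, and in DC Old-LP 15.39, 15.33 and 15.35. Every array of DC Old and of DC Dysbiotic lay below every array of DC Young and of DC Old-LP, while DC Young and DC Old-LP overlapped, as did DC Dysbiotic and DC Old. The share of all probes whose groups lie apart in this way was not counted, so this order is a description only. The mean was 2.33-fold higher in DC Young than in DC Old, which is -1.22 on the log2 scale for DC Old versus DC Young (95% interval -1.87 to -0.56, adjusted p = 0.161). In DC Old-LP versus DC Old it was 2.47-fold higher, a log2 fold change of 1.30 (0.65 to 1.96, adjusted p = 0.150). Neither passed in the fit without a block, and both passed with the letter as a block, where *Ccl17* fell in DC Old relative to DC Young (adjusted p = 0.0194) and rose in DC Old-LP relative to DC Old (adjusted p = 0.0189). Each call held in 6 of the 12 fits that lacked 1 array, and the adjusted p then ran from 0.00779 to 0.121 and from 0.00938 to 0.121. The fall was lost without any of DC Young A, B and C, DC Dysbiotic B, and DC Old A and B (highest adjusted p = 0.121), and the rise without DC Young B, DC Dysbiotic B, DC Old A and B, and DC Old-LP A and B (highest adjusted p = 0.121). Both also passed with no block without DC Old C (-1.50 and 1.58, adjusted p = 0.0323 and 0.0303), when normexp on the median signal replaced the processed signal (adjusted p = 0.0240 and 0.0199) and in the log2 table of the authors (adjusted p = 0.0227 and 0.0195). On the first slide alone they were -1.39 (adjusted p = 0.00085) and 1.59 (adjusted p = 0.000687), and on the C arrays alone -0.88 and 0.74, the first of these across 2 slides.

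DC Dysbiotic had a mean *Ccl17* signal 0.74 below DC Young on the log2 scale (-1.40 to -0.09, adjusted p = 1.00, and 0.183 with the letter as a block), and DC Old-LP exceeded DC Dysbiotic by 0.83 (0.17 to 1.49, adjusted p = 1.00, and 0.173). The first of these passed on the first slide alone (adjusted p = 0.00692), as did the second (adjusted p = 0.00425). DC Old-LP and DC Young differed by 0.09 (-0.57 to 0.74), and DC Old and DC Dysbiotic by -0.48 (-1.13 to 0.18). In the fit without a block, neither of these last pairs differed beyond the spread. With the letter as a block, the interval for DC Old versus DC Dysbiotic was -0.92 to -0.03. The differences on A, B and C were -0.50, -0.55 and -0.37. This pair was not called with that block or on the first slide alone (adjusted p = 0.777 and 0.216). Since a culture is measured as a whole, fewer cells that make a transcript and less RNA per cell cannot be told apart for any of these genes.

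**Figure D1:**
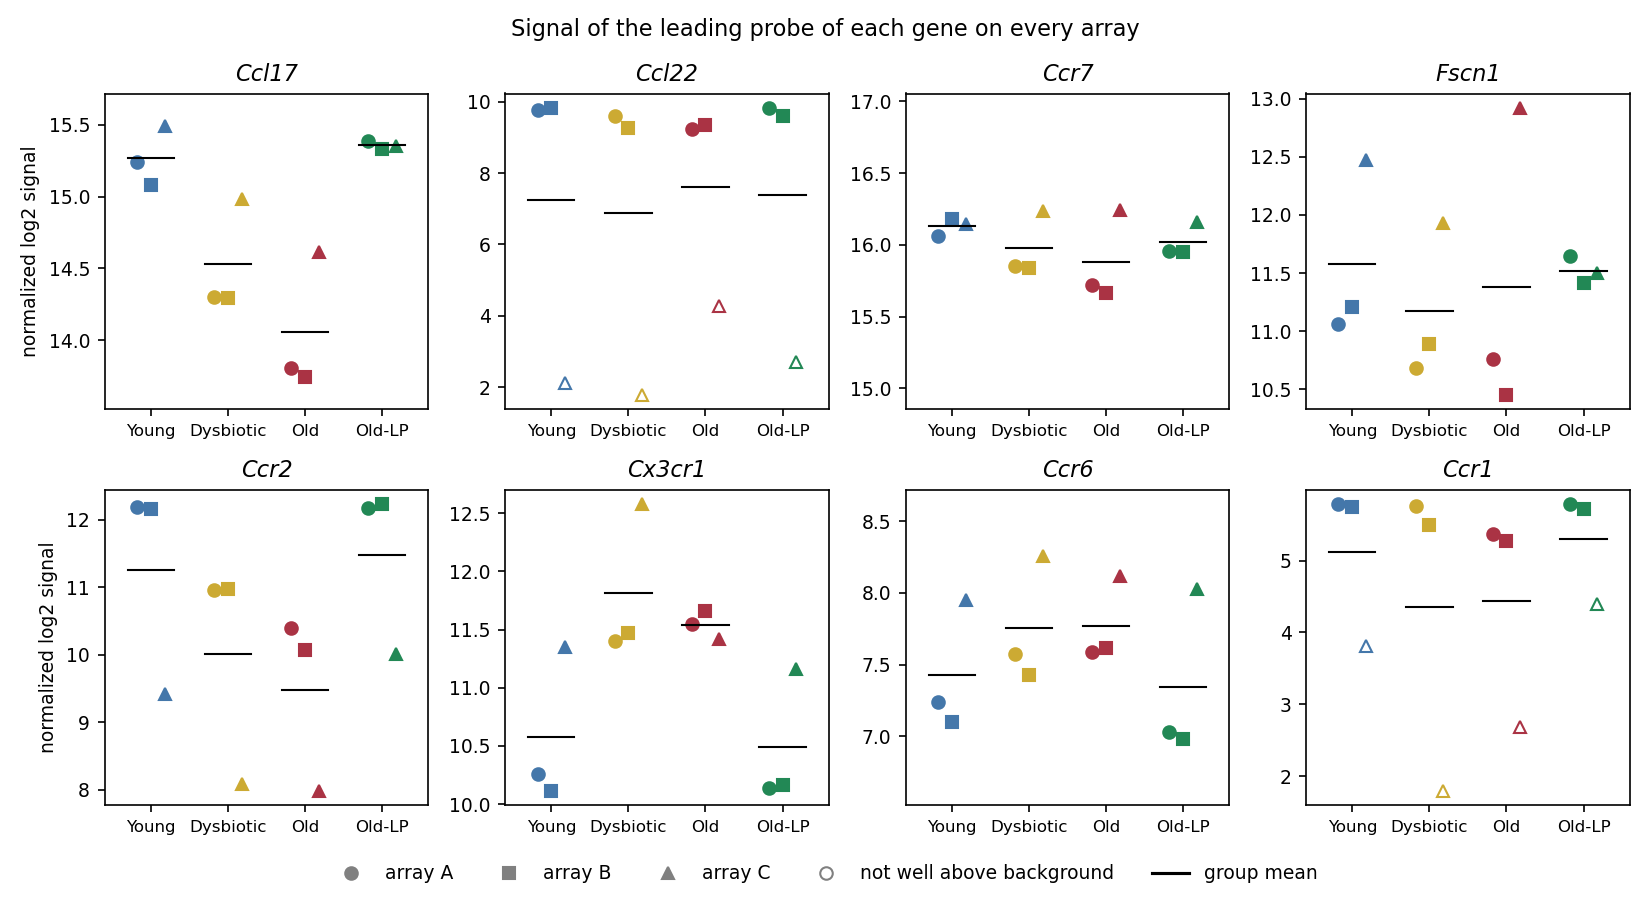
Normalized log2 signal (vertical axes, scaled for each gene) of the leading probe of 8 genes on every array of the 4 groups (horizontal axis), with circles, squares and triangles for arrays A, B and C, open symbols for spots not well above background and a line for the group mean. The C arrays stand apart for most genes, and *Ccl17* and *Ccr2* were lower in DC Dysbiotic and DC Old than in DC Young and DC Old-LP within each letter.

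*Ccl22* lies close to *Ccl17*, with only *Cx3cl1* between them on chromosome 8 in the RefSeq order. Its probe was well above background on 8 of 12 arrays, A and B of every group, and on none of the C arrays, and its means over 3 arrays are therefore not ordered here. On the A and B arrays, its signal was 9.76 and 9.83 in DC Young, 9.60 and 9.25 in DC Dysbiotic, 9.25 and 9.34 in DC Old, with 9.83 and 9.60 in DC Old-LP. Both DC Old values lay below both values of DC Young and of DC Old-LP, while DC Dysbiotic overlapped DC Old. On the first slide alone, the log2 fold change stood at -0.50 in DC Old versus DC Young (adjusted p = 0.113) and 0.42 in DC Old-LP versus DC Old (adjusted p = 0.184), and neither passed. *Cx3cl1*, the CX3CR1 ligand, was well above background on all 12 arrays and had log2 fold changes of -0.07 and 0.18 in the same comparisons (adjusted p = 0.879 and 0.600 with the letter as a block). *Ccr4*, the receptor of both ligands, is a T cell gene and was well above background on 7 of 12 arrays, and its mean was 2.59 ± 1.07 (SD, n = 3) in DC Old, with 5.66 ± 2.63 in DC Old-LP, and the adjusted p of that difference was 0.746.

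*Ccr7* did not pass in any comparison. At its leading probe, A_55_P2023542, the signal on arrays A, B and C was 16.06, 16.18 and 16.15 in DC Young, 15.85, 15.84 and 16.23 in DC Dysbiotic, 15.72, 15.67 and 16.24 in DC Old, with 15.96, 15.95 and 16.16 in DC Old-LP. The A and B arrays of DC Dysbiotic and DC Old lay below those of DC Young and DC Old-LP, and on the C arrays the 4 groups lay within 0.10 of each other. The log2 fold change stood at -0.25 in DC Old versus DC Young (-0.76 to 0.25), -0.15 in DC Dysbiotic versus DC Young (-0.66 to 0.35) and 0.14 in DC Old-LP versus DC Old (-0.36 to 0.65), and none passed. When arrays were scaled by their 75th percentile instead of by quantiles, these values were -0.02, -0.21 and -0.15, so the last of them turned. The other probe, A_51_P420229, gave 13.41, 13.57 and 13.04 in DC Young, 13.08, 13.23 and 12.80 in DC Dysbiotic, 13.13, 13.10 and 12.91 in DC Old, with 13.53, 13.45 and 13.53 in DC Old-LP. Here all 3 arrays of DC Old-LP lay above all 3 of DC Old and of DC Dysbiotic, an order whose share over all probes was not counted. The log2 fold change in DC Old-LP versus DC Old was 0.46 (-0.03 to 0.94, adjusted p = 0.906, and 0.242 with the letter as a block), below the fold threshold. The 2 probes had an r of -0.03 over the 12 arrays and of 0.48 after the mean of each letter was taken out. On the first slide alone, the leading probe gave -0.43 in DC Old compared with DC Young (adjusted p = 0.0371), below the fold threshold.

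*Ccr9*, the other homing receptor stained on these cells in the study, guides cells to the gut. It was well above background on all 12 arrays, with a mean of 8.43 ± 1.09 (SD, n = 3) in DC Young, 8.93 ± 0.67 in DC Dysbiotic, 8.66 ± 0.27 in DC Old, with 8.21 ± 0.67 in DC Old-LP. Its log2 fold change stood at 0.23 in DC Old versus DC Young and -0.44 in DC Old-LP versus DC Old, both within the spread of the arrays. The protein at the cell surface was not analysed here.

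*Fscn1* followed the letter more than the group. Its signal was 11.06, 11.21 and 12.47 in DC Young, 10.69, 10.89 and 11.93 in DC Dysbiotic, 10.76, 10.45 and 12.92 in DC Old, with 11.65, 11.41 and 11.50 in DC Old-LP. DC Old-LP was the highest group on A and B and the lowest on C, and DC Old the reverse on B and C. No comparison passed over all arrays, the log2 fold change being -0.20 (-1.62 to 1.22) in DC Old versus DC Young, and 0.14 in DC Old-LP versus DC Old (-1.28 to 1.56). On the first slide alone, *Fscn1* was 0.92 higher in DC Old-LP than in DC Old on the log2 scale (adjusted p = 0.0220), while the C arrays differed by -1.42.

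*Ccr2*, the receptor for CCL2 on monocytes and inflammatory precursors, had the largest difference between groups among the members that every array read well above background. Its signal was 12.19, 12.16 and 9.41 in DC Young, 10.96, 10.98 and 8.08 in DC Dysbiotic, 10.39, 10.07 and 7.98 in DC Old, with 12.17, 12.23 and 10.01 in DC Old-LP. Each C array lay below the A and B arrays of its own group, and within each letter both DC Dysbiotic and DC Old lay below DC Young and DC Old-LP. The mean was 3.42-fold higher in DC Young than in DC Old and 3.98-fold higher in DC Old-LP than in DC Old. Without a block, the log2 fold changes were -1.77 (-4.18 to 0.63) and 1.99 (-0.41 to 4.4), and neither passed. With the letter as a block, *Ccr2* fell in DC Old versus DC Young (-2.22 to -1.33, adjusted p = 0.00411) and rose in DC Old-LP versus DC Old (1.55 to 2.44, adjusted p = 0.0040). Both calls held in all 12 fits that lacked 1 array, with an adjusted p of 0.00433 to 0.0375 for the fall and of 0.00367 to 0.0331 for the rise. The C arrays of DC Old and DC Young lie on different slides, and the letter block does not take out that difference. The same holds for DC Old-LP and DC Dysbiotic.

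With the same block, *Ccr2* also fell in DC Dysbiotic versus DC Young, by 1.25 on the log2 scale (adjusted p = 0.0289), and was higher in DC Old-LP than in DC Dysbiotic by 1.47 (adjusted p = 0.0214). Each of these calls held in 3 of the 12 fits that lacked 1 array. The first was lost without any array of DC Young or DC Dysbiotic, without DC Old A, and without DC Old-LP A or B (highest adjusted p = 0.187). The second was lost without any array of DC Dysbiotic or DC Old-LP, without DC Young A or B, and without DC Old A (highest adjusted p = 0.135). DC Old and DC Dysbiotic differed by -0.53 (-0.97 to -0.08 with the block, adjusted p = 0.777), and DC Old-LP and DC Young by 0.22 (-0.23 to 0.66, adjusted p = 1.00).

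*Cx3cr1* went the opposite way. At its leading probe, A_55_P2007964, the signal was 10.26, 10.11 and 11.35 in DC Young, 11.40, 11.47 and 12.58 in DC Dysbiotic, 11.54, 11.66 and 11.42 in DC Old, with 10.14, 10.16 and 11.16 in DC Old-LP. All arrays of DC Dysbiotic and DC Old lay above all arrays of DC Young and DC Old-LP, although DC Old C exceeded DC Young C by only 0.07. As for *Ccl17*, the share of all probes whose groups lie apart in this way was not counted. The log2 fold change stood at 0.96 in DC Old versus DC Young (-0.02 to 1.95, adjusted p = 0.848), 1.24 in DC Dysbiotic versus DC Young (0.26 to 2.22, adjusted p = 0.848), -1.05 in DC Old-LP versus DC Old (-2.03 to -0.07, adjusted p = 0.790) and -1.33 in DC Old-LP versus DC Dysbiotic (-2.31 to -0.35, adjusted p = 0.861). None passed without a block or with the letter as a block (adjusted p = 0.193, 0.136, 0.167 and 0.142). These calls varied with the setting. With the slide as a block, the leading probe passed in DC Dysbiotic versus DC Young (adjusted p = 0.0362) and in DC Old-LP versus DC Old (adjusted p = 0.0493), and on the first slide alone it passed in all 4 comparisons. With the letter as a block and without DC Old C, all 4 comparisons passed at this probe, with log2 fold changes of 1.39, 1.24, -1.48 and -1.33 (adjusted p of 0.00248 to 0.00296). They also passed with that block when normexp on the median signal replaced the processed signal (adjusted p of 0.0287 to 0.0467) and in the log2 table of the authors (0.0233 to 0.0377). The other probe, A_52_P99810, gave 7.58, 7.44 and 9.27 in DC Young, 8.99, 9.02 and 10.35 in DC Dysbiotic, 9.14, 8.98 and 8.92 in DC Old, with 7.58, 7.68 and 8.61 in DC Old-LP. It ran with the leading probe (r = 0.99 over 12 arrays). Unlike there, DC Old and DC Dysbiotic each overlapped DC Young, and on the C arrays DC Old minus DC Young was -0.35. With the letter as a block and without DC Old C, this probe passed in the same 4 comparisons, with an adjusted p of 0.0107 to 0.0139.

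*Ccr6*, the receptor for CCL20, was dim but well above background on all arrays. Its signal was 7.24, 7.10 and 7.95 in DC Young, 7.57, 7.43 and 8.26 in DC Dysbiotic, 7.58, 7.61 and 8.11 in DC Old, with 7.03, 6.98 and 8.03 in DC Old-LP. Within each letter, DC Old and DC Dysbiotic lay above DC Young and DC Old-LP. No comparison passed with the letter as a block, the log2 fold change being 0.34 (0.01 to 0.67, adjusted p = 0.374) in DC Old versus DC Young, and -0.42 in DC Old-LP versus DC Old (-0.75 to -0.10, adjusted p = 0.266). *Ccr1*, a receptor for CCL3 and CCL5, was well above background on A and B of every group and on no C array. On A and B it gave 5.79 and 5.74 in DC Young, 5.76 and 5.49 in DC Dysbiotic, 5.38 and 5.27 in DC Old, with 5.79 and 5.72 in DC Old-LP. DC Old was the lowest group on both letters, and no comparison passed on the first slide (adjusted p = 0.0839 in DC Old versus DC Young and 0.0969 in DC Old-LP versus DC Old).

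**Figure D2:**
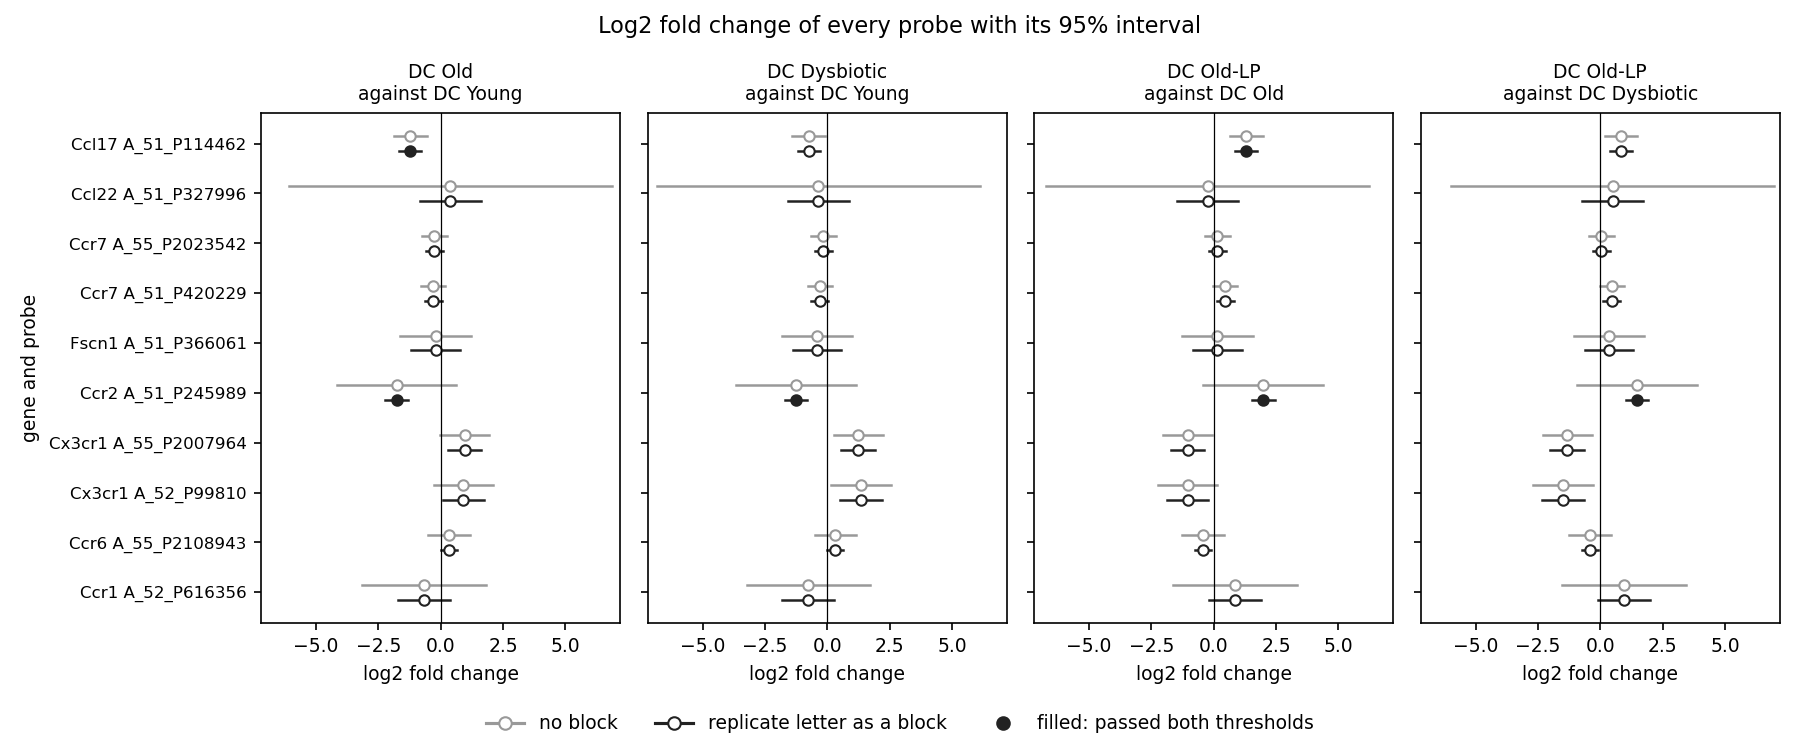
Log2 fold change (horizontal axes) with its 95% interval for each of the 10 probes (rows) in 4 comparisons, in grey without a block and in black with the replicate letter as a block, with filled points for probes past both thresholds. Filled points are seen for *Ccl17* and *Ccr2* in the black intervals, and the *Ccl22* intervals without a block reach from about -6 to 7 because its C arrays were not above background.

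**Figure D3:**
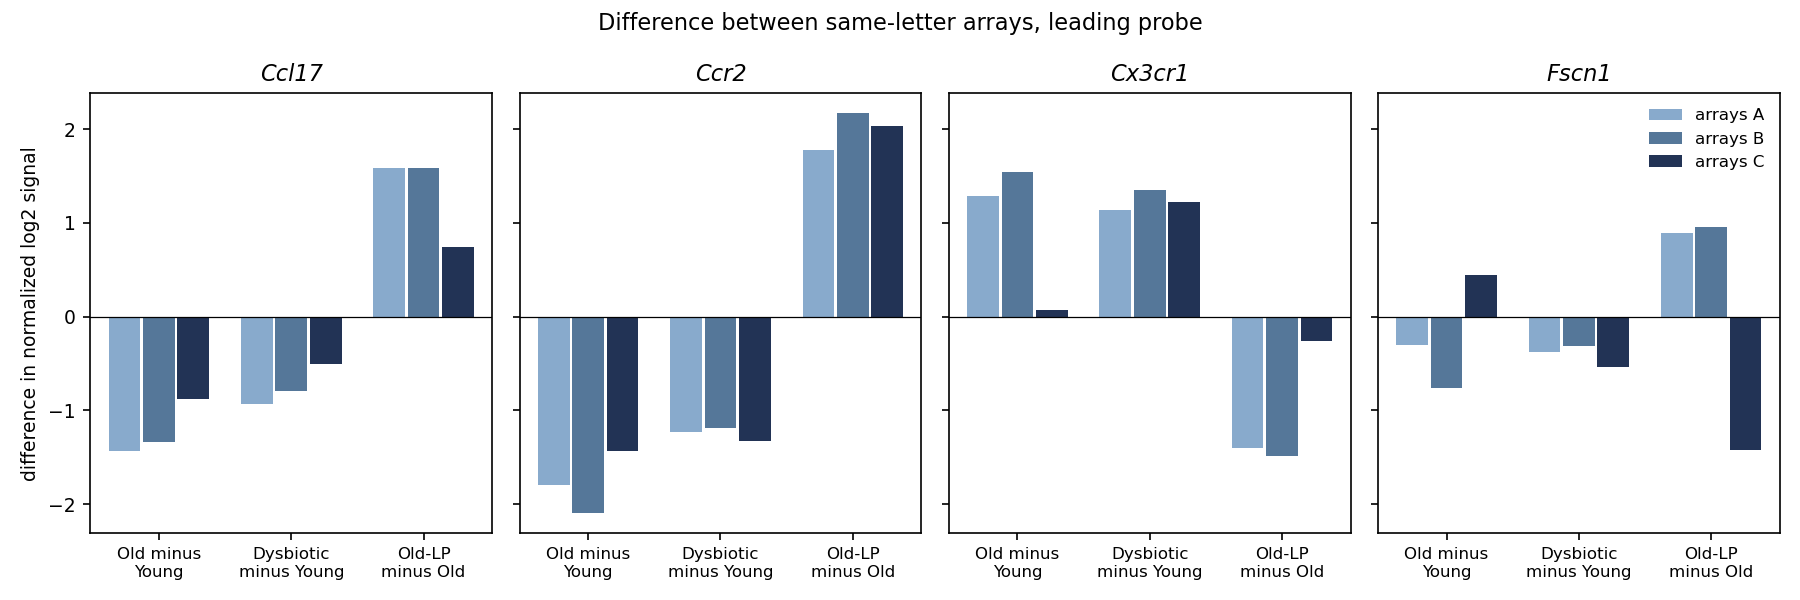
Difference in normalized log2 signal between arrays of the same letter (vertical axis) for *Ccl17*, *Ccr2*, *Cx3cr1* and *Fscn1* in 3 comparisons, with a bar for each letter. The bars of *Ccl17* and *Ccr2* point the same way for all 3 letters. Those of *Cx3cr1* shrink to 0.07 and -0.26 on the C arrays of DC Old. Those of *Fscn1* turn on C in the comparisons that include DC Old, and point down for all 3 letters in DC Dysbiotic minus DC Young.

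Counted over the 10 probes, none passed in any of the 6 comparisons without a block, where the smallest adjusted p were the 0.150 and 0.161 of *Ccl17*. In DC Old versus DC Young, 0.62% of all probes passed without a block and 2.18% with the letter as a block, against 0 and 2 of the 10. Passing with the slide as a block were 3 of 10 (*Ccl17*, *Ccr2* and the other *Cx3cr1* probe) against 2.7% of all probes, and on the first slide alone 4 of 10 (*Ccl17*, *Ccr2* and both *Cx3cr1* probes) against 9.17%. In DC Dysbiotic versus DC Young, the shares of all probes were 0.344, 0.984, 2.04 and 6.14% in the same order, and 0, 1, 3 and 4 of the 10 passed. In DC Old-LP versus DC Old, they were 0.348, 1.65, 3.29 and 8.24%, and 0, 2, 3 and 6 of the 10 passed, the last with *Fscn1* and *Ccr6* added. In DC Old-LP versus DC Dysbiotic, they were 0.163, 0.588, 0.728 and 4.81%, and 0, 1, 1 and 4 passed. No member passed in DC Old-LP versus DC Young, where the shares were 0, 0.00177, 0.00177 and 0.0389%, or in DC Old versus DC Dysbiotic, where they were 0.00177, 0.00177, 0.00177 and 0.0406%. At an unadjusted p of at most 0.05 without a block, 1, 3, 2 and 3 of the 10 passed in the first 4 of these comparisons, beside 6.05, 3.90, 5.87 and 3.35% of all probes, and 0 in the other two. The comparisons share groups, so their counts are not independent of each other. The median log2 fold change of the 10 probes was -0.23 in DC Old versus DC Young, -0.33 in DC Dysbiotic versus DC Young, 0.14 in DC Old-LP versus DC Old and 0.41 in DC Old-LP versus DC Dysbiotic, beside 0.01, -0.02, -0.01 and 0.03 for all probes. The members were chosen with earlier results of these data known, so these counts and medians describe the list and do not test it.

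After the mean of each letter was taken out, some of the members formed 2 opposed sets over the 12 arrays. *Ccl17* and *Ccr2* varied together (r = 0.93), *Ccr6* and *Cx3cr1* did so too (r = 0.93), and *Ccl17* ran against *Ccr6* (r = -0.93) and *Cx3cr1* (r = -0.84), as *Ccr2* did against *Cx3cr1* (r = -0.87). *Ccr7* had an r of 0.71 with *Ccl17* and of 0.61 with *Ccr2*. The other members followed less closely, *Fscn1* with 0.46 and 0.25 and *Ccr1* with 0.44 and 0.72 for the same genes. *Ccl22* had an r of 0.03 with *Ccl17*, but its C values were not above background. The 12 arrays share slides and the group structure, so these values describe the arrays and carry no test. With the same centring, among 10749 genes well above background on all arrays, those with the pattern most like *Ccl17* were *Top2a*, *Kmo* and *Gbp5* (r of 0.990 to 0.992), those most like *Ccr2* were *Vcan*, *Il4* and *Dock2* (r of 0.988 to 0.996), and those most like *Cx3cr1* were *Fxyd2*, *Chst1* and *Cbln1* (r of 0.993 to 0.996). For *Ccr7*, *Caprin2*, *Akr1c12* and *Cyb5b* came closest (r of 0.93 to 0.96), for *Fscn1* they were *H2-M2*, *Usp4* and *Dmtn* (r of 0.976 to 0.984), and for *Ccr6* they were *Nfatc1*, *Esd* and *Thra* (r of 0.987 to 0.993).

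The rest of the chemokine system was read at the brightest probe of each gene. Of 29 other chemokine ligands measured, 1 rose and 2 fell in DC Old versus DC Young without a block, and 5 rose and 2 fell with the letter as a block. Of all probes, 0.62 and 2.18% were called in the same fits. *Ccl8*, a ligand for inflammatory receptors, had a mean of 10.61 ± 0.15 in DC Young (SD, n = 3), 12.48 ± 0.08 in DC Dysbiotic, 12.54 ± 0.07 in DC Old, with 10.73 ± 0.25 in DC Old-LP, rising by 1.93 in DC Old (adjusted p = 0.00275) and by 1.87 in DC Dysbiotic (adjusted p = 0.00479) versus DC Young. *Ccl1*, the CCR8 ligand, was 11.03 ± 0.19 in DC Young and 5.99 ± 0.31 in DC Old (adjusted p = 0.000345) and rose again to 10.80 ± 0.19 in DC Old-LP (adjusted p = 0.0016). *Cxcl9*, a CXCR3 ligand that attracts activated T cells, was not well above background on any DC Old array, so it was at least 13.1-fold lower there than in DC Young (adjusted p = 0.0109) and at least 11-fold lower than in DC Old-LP (adjusted p = 0.022). With the letter as a block, the neutrophil-attracting *Cxcl5* and *Cxcl3*, the monocyte ligand *Ccl12* and *Cxcl16* also rose in DC Old versus DC Young. None of the 13 other chemokine receptors passed in any comparison with or without the block. Of 5 atypical receptors, which bind chemokines without classical signalling, 1 passed. This was *Ackr1*, which rose in DC Old versus DC Young by 3.64 (adjusted p = 0.0094) and in DC Dysbiotic versus DC Young by 3.38 on the log2 scale (adjusted p = 0.0195), and in DC Old-LP versus DC Old it fell by 2.49 with the letter as a block only (adjusted p = 0.0053).

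Of 26 further genes of the mature DC signature, 1 fell in DC Old versus DC Young and 1 rose in DC Old-LP versus DC Old without a block, and 3 fell and 2 rose with it. Of all probes, 0.62 and 0.348% were called in these comparisons without a block, and 2.18 and 1.65% with the letter as a block. The counts of the next lists stand beside the same shares. *Pdcd1lg2*, which encodes the PD-1 ligand PD-L2, fell by 1.69 on the log2 scale in DC Old (adjusted p = 0.0272) and rose by 1.64 in DC Old-LP (adjusted p = 0.0495). With the letter as a block, *Cd200* and the co-stimulatory *Cd86* fell in DC Old and *Cd200* rose in DC Old-LP. The median log2 fold change of the 26 genes was -0.24 in DC Old versus DC Young and 0.32 in DC Old-LP versus DC Old, beside 0.01 and -0.01 for all probes. This list, too, was chosen with earlier results of these data known, so the medians do not test it. Of 30 genes for motility and the cytoskeleton, none passed without a block. With the letter as a block, the actin regulator *Dock2* and the integrin *Itgb7* fell and the junction protein gene *F11r* rose in DC Old versus DC Young, and *Dock2* rose and *F11r* fell in DC Old-LP versus DC Old. Of 13 genes of the eicosanoid and lipid signals that act on CCR7-dependent migration, *Nr1h3* (the oxysterol receptor LXRα) rose and *S1pr3* fell in DC Old with the block only, and *Nr1h3* fell in DC Old-LP. None of the 13 regulators of the NF-κB, IRF4 and STAT6 pathways passed in any comparison with or without the block.

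**Figure D4:**
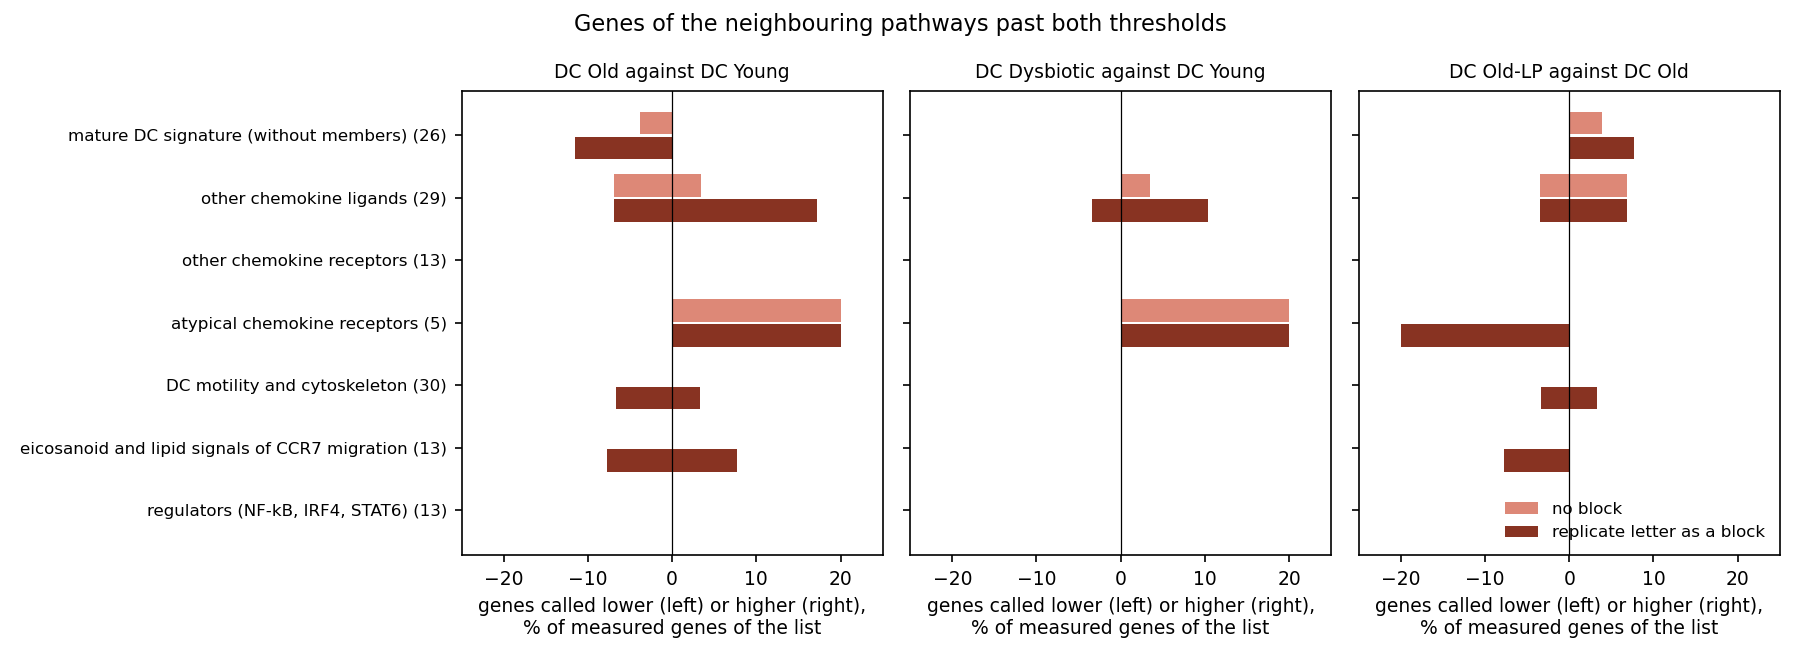
Share of the measured genes of 7 lists (rows, with the number measured) that passed both thresholds, lower to the left and higher to the right, in 3 comparisons, without a block (light) and with the replicate letter as a block (dark). The bars of the atypical receptors stand for 1 gene, *Ackr1*, and the rows of the other chemokine receptors and of the regulators are empty.

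Markers of other cell types moved with some of these values, and their part in the results was not tested. The log2 of the summed signal of 6 eosinophil markers was 16.8 to 16.9 in DC Young, 15.5 to 16.7 in DC Dysbiotic, 15.1 to 17.0 in DC Old, with 16.6 to 16.8 in DC Old-LP, lowest on the A and B arrays of DC Old and highest on its C array. For 10 neutrophil and granulocyte precursor markers it was 14.3 to 14.5, 13.5 to 14.1, 12.9 to 15.8 and 14.5 to 15.2 in the same order, and for 6 NK cell markers, led by *Gzmb*, 13.6 to 14.8, 12.7 to 14.3, 11.9 to 13.1 and 13.7 to 14.2. All 6 eosinophil markers had a lower mean in DC Old than in DC Young (median log2 fold change -0.98), and 1 fell past the thresholds with the letter as a block. Of the 6 NK cell markers, 4 had a lower and 2 a higher mean there, and 1 fell with that block. Of the 10 neutrophil and precursor markers, 8 had a lower mean in DC Old than in DC Young, and 8 in DC Dysbiotic. In each of these comparisons, 1 marker rose past the thresholds and 0 fell, with or without the letter as a block. The sum of the 10 measured megakaryocyte and erythroid markers was, like *Cx3cr1*, higher in DC Dysbiotic and DC Old within each letter. It was 15.8 to 16.2 in DC Young, 16.4 to 16.9 in DC Dysbiotic, 16.3 to 16.9 in DC Old and 15.9 to 16.3 in DC Old-LP. In DC Old versus DC Young, 7 of the 10 had a higher mean and 3 a lower one. There 2 rose past the thresholds without a block and 5 with the letter as a block, beside 0.62 and 2.18% of all probes called. *Klf1* was not well above background on any DC Old or DC Dysbiotic array. For 8 monocyte markers, which bear on *Ccr2* and *Cx3cr1*, the sum was 18.4 in DC Young, 18.4 to 18.5 in DC Dysbiotic and DC Old, and 18.3 to 18.4 in DC Old-LP, with all 8 well above background on all arrays. For 10 macrophage markers it was 17.2 to 18.1 in DC Young, 17.2 to 18.04 in DC Dysbiotic, 17.2 to 18.2 in DC Old, with 17.3 to 17.9 in DC Old-LP. In DC Old versus DC Young, 4 monocyte markers had a higher mean and 4 a lower one, and 1 fell with the letter as a block. Of the macrophage markers, 4 had a higher and 6 a lower mean there, and 1 fell with that block. For 7 T cell markers the sum was 14.1 to 14.3 in DC Old, below every array of the other groups (14.6 to 15.3 in DC Young, 14.6 to 15.4 in DC Dysbiotic and 14.6 to 15.2 in DC Old-LP), and the median log2 fold change of these markers was -1.10 in DC Old versus DC Young and 0.84 in DC Old-LP versus DC Old, with none passing. For 7 B cell markers, A and B gave 11.78 and 11.88 in DC Old and 12.62 to 12.77 in DC Young and DC Old-LP, while C of DC Old was the highest at 14.10. For 10 mast cell and basophil markers, A and B gave 13.91 and 13.75 in DC Old and 14.27 to 14.72 in the other groups, while C of DC Old was again the highest at 15.93.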

How the data were processed

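Processed data of 12 arrays were used, 3 per group, and groups, letters and slides were taken from the sample labels and file names. The authors deposited the processed intensity of every spot from Agilent Feature Extraction (version 12.1.1.1 in the file headers, 10.5 in the submitters' processing notes), with background subtracted and no normalization between arrays. They also deposited a table of log2 values, which was used as an alternative. Control spots were left out and 1068 outlier readings were set to missing. Log2 intensities were quantile normalized, as in the study's methods, and then averaged by probe. Probes were named through accessions in a RefSeq table (35405 of 56605 probes, 24232 symbols). R 4.3.3 and limma 3.58.1 (lmFit, eBayes) were used with 1 mean per group over all arrays, the thresholds given above (0.05 for the adjusted p, 0.5 for the log2 fold change). Motifs were counted with Python. The number of arrays limits the precision.

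Whether the letters pair the arrays was read from the correlation of deviations from group means. This was 0.415 to 0.711 for the same letter in different groups, and 0.415 to 0.621 when only A and B arrays were taken. It was 0.449 to 0.570 between A and B, and -0.659 to -0.466 between C and the others. Mainly C was thus set apart, and a pairing of A and B by letter was not seen. Deviations within a group cancel, so a shifted C array in itself gives negative values between C and the others. The members and lists were chosen with earlier results of these data known. Genes of other lists were named where called, at most 4 per list with the smallest adjusted p, and further genes called with the block were named after their values were seen, with *Ccr4* and *Ccr9* in any case. Alternatives were another normalization, normexp (on the median signal, since no mean is in the files), the authors' log2 table, a filter on dim probes, gene averages, blocks, the compared groups alone, an intensity trend, outliers kept, and each array left out. Repeats of these with the letter as a block were added after seeing the data. The steps were tested on simulated data. Array headers name mm9, and coordinates printed are GRCm38.p6 from the RefSeq table.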

Additional observations from a re-analysis of the deposited data

How the results depend on the processing

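With no block, 0 of the 10 probes passed in all 6 comparisons, and 0 also passed with the 75th percentile shift, dim probes left out, gene averages, the compared groups alone, the intensity trend and outlier spots kept. For DC Old and DC Young, 1 probe passed after normexp and 1 in the log2 table of the authors, 2 with the replicate block, 3 with the slide block and 4 on the first slide alone, and leaving out each array gave 0 to 1. For DC Old-LP over DC Old these counts were 1, 1, 2, 3, 6 and 0 to 1. For DC Dysbiotic and DC Young they were 1 with the replicate block, 3 with the slide block and 4 on the first slide, and for DC Old-LP and DC Dysbiotic 1, 1 and 4. Taking the letter as a block thus added calls in 4 comparisons. With the replicate block as the base (alternatives chosen after seeing the data), leaving out each array gave 1 to 4 calls for DC Old and DC Young (2 with all arrays), 0 to 3 for DC Dysbiotic and DC Young (1), 1 to 4 for DC Old-LP and DC Old (2) and 0 to 3 for DC Old-LP and DC Dysbiotic (1). The share of all probes called moved with them and was 0.622 to 3.61, 0.246 to 2.56, 0.348 to 3.09 and 0.0053 to 1.96% in that order, and the highest counts of members and of all probes both came without DC Old C. With all arrays and this block, DC Dysbiotic and DC Young gave 2 calls with the percentile shift, 2 with normexp and 3 in the table of the authors, and DC Old-LP and DC Dysbiotic gave 4 with normexp and 4 in that table. Among the fold changes that turned on the first slide alone, 4 had an unadjusted p of 0.05 or less there. These were of *Ccl22* (-0.50 in DC Old over DC Young, 0.42 in DC Old-LP over DC Old), *Fscn1* (0.39 in DC Old-LP over DC Young) and *Ccr1* (-0.30 in DC Old over DC Dysbiotic). With the replicate block, *Ccl22* in DC Old-LP over DC Old ran from -0.71 to 0.57 as arrays were left out, and turned without DC Old C. The cause was not tested. Of 1428 recomputed member fold changes, 111 changed sign, none of them of *Ccl17*, *Ccr2* or *Ccr6* in the 4 comparisons of DC Old or DC Dysbiotic with DC Young or DC Old-LP. On C arrays, *Ccl22* and *Ccr1* were not well above background, which leaves 2 arrays per group for them.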
